A study of Mus musculus with 39 samples.

Results

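The CpGs described here are those whose total methylation was higher in p53-null than in wild-type (WT) mouse embryonic stem cells (mESC) both in the naive state and after retinoic acid (RA). They were chosen from the deposited values themselves, as CpGs at least 20 percentage points higher in p53-null cells in each state. The rule found 587 of 330387 measured CpGs, or 0.178%. Whatever the other state, 6.24% of all CpGs passed in the naive state and 0.666% after RA, as 20618 and 2199 CpGs. The 587 CpGs made up 2.85% of the first list and 26.7% of the second. Lower by as much in both states were 199 CpGs (0.0602%). A further 1978 were higher in naive and lower in RA-treated p53-null cells, and 49 were lower and then higher. Since these values define the CpGs, their genotype differences are a description and were not tested.

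DNA methylation in mammals sits mainly on the cytosine of CpG dinucleotides. It is written by the DNMT enzymes, and TET enzymes oxidise 5-methylcytosine (5mC) to 5-hydroxymethylcytosine (5hmC), a step towards its removal. Naive stem cells held in 2i medium carry little methylation outside a few protected regions, and methylation is laid down again as they leave that state. p53 is the transcription factor encoded by Trp53, best known for halting or killing damaged cells.

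The series holds 39 libraries, 33 from mESC and 6 from liver. All mESC came from embryos at day 2.5, taken from timed matings of heterozygous 129s-Trp53tm2Tyj/J mice, and the lines compared were WT or p53-/-. They were derived on irradiated mouse embryonic fibroblast feeders in 2i medium. The naive groups had 5 WT and 3 p53-null libraries by reduced representation bisulfite sequencing (RRBS), which reads 5mC and 5hmC together as total methylation. The RA groups had 5 WT and 4 p53-null RRBS libraries, from feeder-depleted cells given 1 uM RA for 4 days. The oxidative form (oxRRBS), which reads 5mC alone, had 5 WT and 3 p53-null naive libraries and 4 of each genotype after RA. The sources used here do not say how many separate lines or clones the libraries represent, and feeder DNA in naive libraries was not tested. The authors pooled each group into 1 value per CpG, so values below have no SD and no known depth, and the spread among libraries cannot be set beside any difference. No mm9 genome was at hand, so CpGs and tiles are given by mm9 position, without gene annotation or sequence.

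The 587 CpGs were moderately methylated in WT cells and more heavily methylated in p53-null cells. In naive WT cells their total methylation ranged from 0% to 79% with a median of 29%, and in naive p53-null cells from 20% to 100% with a median of 59%. After RA the WT range was 0% to 80% with a median of 42%, and the p53-null range was 21% to 100% with a median of 67%. The naive difference had a median of 28 points and reached 71, and the RA difference had a median of 24 and reached 58. The naive difference was the larger at 382 CpGs, the RA difference at 173, and they were equal at 32.

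**Figure D1:**
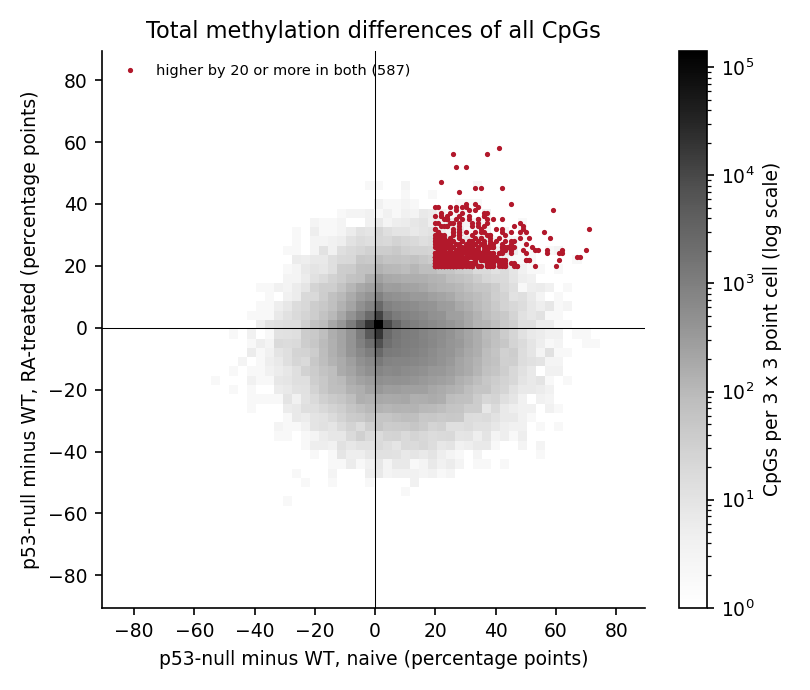
Difference in total methylation between p53-null and WT cells for each CpG, naive on the x axis and RA-treated on the y axis, in percentage points. Grey shading is the number of CpGs per cell on a log scale. The 587 red points, at 20 points or more on both axes, sit in the sparse upper right corner, and the darkest cell, where most CpGs fall, is at 0 on both axes.

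For a reference of like methylation, the 77777 CpGs whose 4 group values average between 20% and 80% are called intermediate CpGs here. They include 568 of the 587. Of intermediate CpGs, 25.4% passed 20 points in the naive state and 2.45% after RA. The share of the RA list that also passed in naive cells (26.7%) and the share of the naive list that also passed after RA (2.85%) were near these values. Intermediate CpGs had medians of 35% in naive WT, 48% in naive p53-null, 60% in RA-treated WT and 55% in RA-treated p53-null cells. Their median genotype difference was 11 points in the naive state and -4 points after RA. The rule itself places the 587 CpGs on the side of the general naive difference and against the general RA difference.

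Against intermediate CpGs, the medians of the 587 were lower in both WT groups, at 29% against 35% in naive and 42% against 60% in RA-treated cells, and higher in both p53-null groups, at 59% against 48% and 67% against 55%. All 4 values enter the rule. WT cells gained a median of 12 points from the naive to the RA-treated state at the 587 CpGs and 23 points at intermediate CpGs. p53-null cells gained a median of 7 points at the 587 and 8 points at intermediate CpGs. WT methylation was higher after RA at 461 of the 587, and p53-null methylation at 388. The 10th percentile of the WT change was -6 points at the 587 and 3 points at intermediate CpGs. A rise in WT was thus the less frequent at the 587. For the p53-null change the lower quartile was -4 points in both. At 510 of the 587 the naive p53-null value already exceeded the RA-treated WT value. The 18053 CpGs that were 20 points higher in naive p53-null cells only, with an RA difference inside 20 points, had a median of 62% in RA-treated WT cells, and 9595 of them had a naive p53-null value above that of RA-treated WT. All of these comparisons share columns with the rule.

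**Figure D2:**
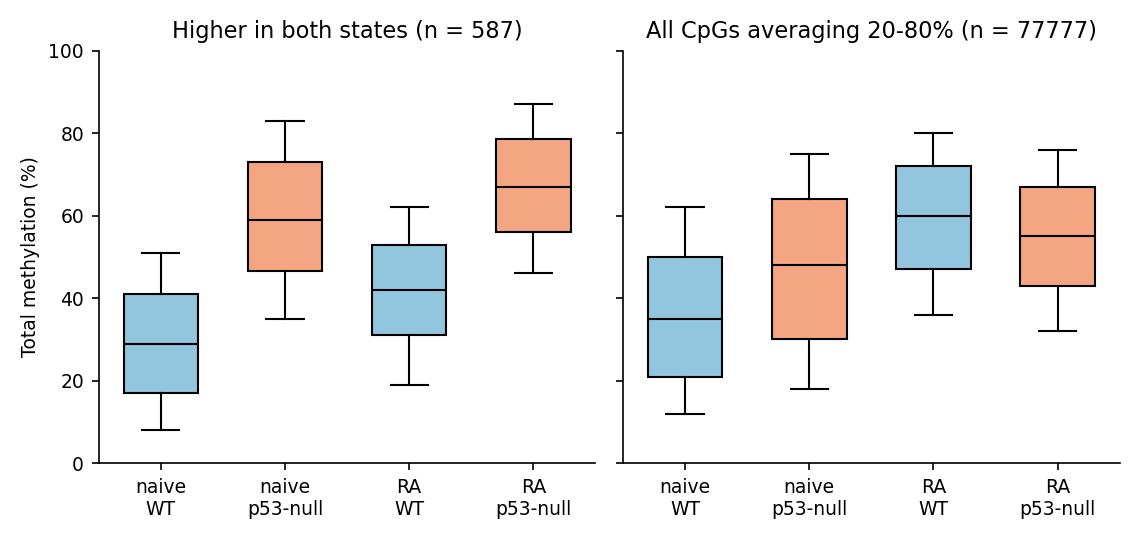
Total methylation in percent in the 4 pooled groups, for the 587 CpGs higher in both states and for the 77777 CpGs averaging 20% to 80%. Boxes span the quartiles over CpGs, the line is the median and whiskers run from the 10th to the 90th percentile. Among the 587 CpGs RA-treated WT has a median of 42%, against 60% on the right.

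Few of these CpGs lay at the ends of the scale. At 25 of the 587, a total value was 0% or 100%. In 55 the WT value was under 20% in both states, and in 46 the p53-null value was at least 80% in both. Many stood near the limit: 113 had a smaller difference of exactly 20 points, 187 passed 25 points in both states, 53 passed 30 and 3 passed 40. Just outside, 163 CpGs had a smaller difference of 19 points. On chromosome 1, the CpG at 11719432 to 11719433 was just inside with 20% and 41% in naive WT and p53-null cells and 46% and 66% after RA. The CpG at 48761834 to 48761835 was just outside, with 23% and 65%, then 56% and 75%.

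The CpGs with the largest smaller difference, 35 to 42 points, were named by a rule, 1 per 1000 bp, and lay on 8 chromosomes. The first, on chromosome 11 (97870825 to 97870826), was at 9% in naive WT, 51% in naive p53-null, 27% in RA-treated WT and 72% in RA-treated p53-null cells. Its nearest other measured CpG that did not pass the rule, 24 bp away, was higher in p53-null cells by 27 points in the naive state and lower by 4 points after RA. On chromosome 8 (110533593 to 110533594) the values in the same order were 40%, 81%, 42% and 100%. That CpG had no other measured CpG within 1000 bp.

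On chromosome 17 (83731856 to 83731857) they were 38%, 83%, 46% and 86%. On chromosome 4 (26934680 to 26934681) they were 13%, 72%, 40% and 78%, the largest naive difference of the 10, 59 points. On chromosome 15 (37164623 to 37164624) they were 11%, 48%, 27% and 83%, while its 17 neighbours within 1000 bp averaged -0.53 and -1.71 points in the naive and RA-treated states. The neighbours of this last CpG did not share its difference on average, whereas the CpG on chromosome 17 had 1 neighbour, higher by 11 and 4 points.

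Another on chromosome 8 (123411610 to 123411611) was low in WT cells, at 3% and 10%, and reached 40% and 47% in p53-null cells. On chromosome 11 (4202951 to 4202952) WT cells were at 4% and 0% and p53-null cells at 40% and 36%. On chromosome 2 (76507556 to 76507557) WT cells had 44% and 33% and p53-null cells 80% and 70%. In that last pair of CpGs WT methylation was the lower after RA, unlike at most of the 587. On chromosome 5 (118596623 to 118596624) WT cells were at 46% and 45% and p53-null cells at 82% and 81%, so that RA moved neither genotype by more than 1 point. On chromosome 1 (113271246 to 113271247) WT cells were at 46% and 41% and p53-null cells at 83% and 76%.

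Most of the 587 CpGs had no other of their kind within 1000 bp, and 238 had no other measured CpG of any kind there. Joined at gaps of up to 1000 bp, they formed 568 separate sites, of which 551 held a single CpG, 15 held 2 and 2 held 3. Only 36 of the 587 (6.13%) had another of their kind within 1000 bp, and 34 within 200 bp. For CpGs higher in RA-treated p53-null cells only, 7.17% had another of their kind within 1000 bp, and for those higher in naive p53-null cells only, a list of 18053, it was 24.1%. For the 199 CpGs lower in both states it was 8.04%. The lists differ in size, and whether they differ in clustering was not tested.

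Where such CpGs did fall together they lay close. Of the 17 multiple sites, 16 spanned at most 200 bp. One, on chromosome 11, held CpGs starting at 94603821, 94603823 and 94603876. Its naive values were 34%, 18% and 38% in WT and 69%, 85% and 62% in p53-null cells, and after RA they were 50%, 57% and 67%, and 81%, 80% and 100%. All 3 CpGs were higher without p53 in each state, by 23 to 67 points, and no other CpG was measured between them.

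The other triple, on chromosome 2, held CpGs starting at 103936284, 103936322 and 103936330. Naive WT values were 28%, 21% and 33% and naive p53-null values 49%, 52% and 55%. After RA they were 33%, 27% and 26% in WT and 58%, 53% and 53% in p53-null cells. Another 2 CpGs just before these, starting at 103936217 and 103936256, fell outside the rule but differed the same way, by 14 and 13 points in naive and 19 and 34 points in RA-treated cells. All 5 CpGs of this stretch were thus higher without p53 in each state. The next named sites, pairs of CpGs on chromosome 1 starting at 34309925, 138783438 and 141538311, had differences of 22 to 41 points in naive and 20 to 36 points in RA-treated cells. Within the 17 multiple sites the CpGs differed from each other by a median of 7 points in their naive difference and 5 points in their RA difference. The rule bounds both differences from below. Over all 587 CpGs the quartiles were 23 and 35 points in naive and 21 and 28 points in RA-treated cells. CpGs far apart were not compared in this way, so no local likeness can be read from these values.

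The CpGs lay on all 20 chromosomes with at least 1000 measured CpGs, and the X chromosome had the highest rate. Per 1000 intermediate CpGs, the autosomes held between 4.47 (chromosome 5) and 11.01 (chromosome 13), with a median of 7.59, and X held 18.8. X carried 22 of the 587 (3.75%) and 1.5% of all measured CpGs. CpGs lower in both states were also most frequent on X, at 8.55 per 1000 intermediate CpGs. On chromosome 11, which carries the p53 gene, the rate was 7.82, and the rate of CpGs lower in both states was 4.84, the next highest after X. At the 22 X-linked CpGs the medians were 28.5% in naive WT, 66% in naive p53-null, 32.5% in WT after RA and 55.5% in p53-null cells after RA. The labels give no sex for the mESC lines, so sex of line and genotype cannot be told apart on X.

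**Figure D3:**
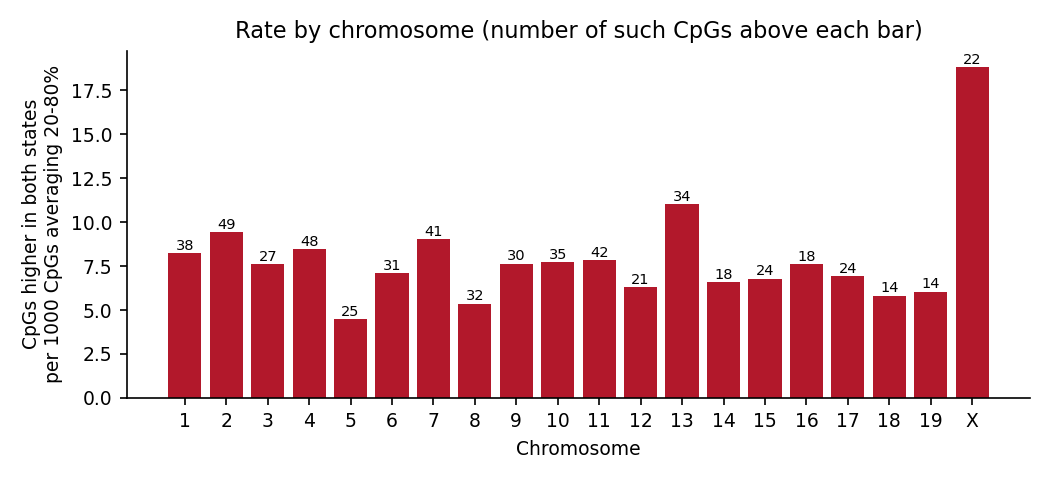
CpGs higher without p53 in each state per 1000 CpGs averaging 20% to 80%, by chromosome, with the number of such CpGs above each bar. The bar for X stands at 18.8 and no autosome passes 11.01.

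They lay in sparsely measured sequence, as intermediate CpGs did. The median distance to the next measured CpG was 179 bp, against 128 bp for intermediate CpGs and 13 bp for all CpGs. No other CpG was measured within 1000 bp of 238 of the 587 (40.5%), and the share was 35.6% of intermediate and 9.84% of all CpGs. In 200 bp tiles, 363 (61.8%) were the only measured CpG of their tile, against 57.7% and 19.2%. Tiles with 5 or more measured CpGs held 14 of the 587 (2.39%), near the 2.47% of intermediate CpGs, and 51.9% of all CpGs.

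Neighbouring CpGs that did not pass the rule had a naive difference near that of intermediate CpGs and an RA difference slightly above 0. Within 1000 bp there were 735 such neighbours. Their means were 28.2% in naive WT, 40.9% in naive p53-null, 46.1% in WT after RA and 47.6% in p53-null cells after RA. The mean difference was 12.7 points in naive cells and 1.56 points after RA, with quartiles of -5 and 9 points for the latter. In naive cells 570 of the 735 neighbours (77.6%) were higher in p53-null cells, against 32.5% of all CpGs and 79.1% of intermediate CpGs, so the share was near that of CpGs of like methylation. After RA 376 (51.2%) were higher, against 23.4% and 33.0%. Both at once held for 304 neighbours (41.4%), against 10.1% and 26.3%. Neighbours share reads and libraries with the CpGs they were chosen by, so these are descriptions.

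The RA difference was largest at the shortest distance. Among the 68 neighbours at 1 to 20 bp it averaged 5.88 points and 50 were higher in p53-null cells. At 21 to 50 bp it averaged 1.65 points over 110 neighbours, and at 101 to 200 bp 2.61 points over 168. At 501 to 1000 bp the mean was -2.10 points over 127 neighbours. The naive difference of the same neighbours was 17.4 points at 1 to 20 bp, 14.3 points at 101 to 200 bp and 5.96 points at 501 to 1000 bp. Methylation itself also fell with distance, from 52.5% to 26.8% in RA-treated WT cells between the first and this last distance.

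Neighbours of other CpGs were taken with the 587 left out in the same way. Within 20 bp of CpGs higher in naive p53-null cells only, the mean difference was 15.3 points in naive and -4.04 points in RA-treated cells. Within 20 bp of those higher after RA only, it was 3.75 points in naive and 5.45 points in RA-treated cells. At 21 to 50 bp the neighbours of CpGs higher after RA only had the larger mean in naive cells, 6.40 against 2.32 points, and over 1 to 1000 bp it was 5.46 against 0.35 points. The differences between lists were not tested. A CpG higher after RA only lay within 1000 bp of 39 of the 587 (6.64%) and of 1.85% of intermediate CpGs. A CpG higher in naive cells only lay as near to 154 (26.2%), against 19.7%.

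**Figure D4:**
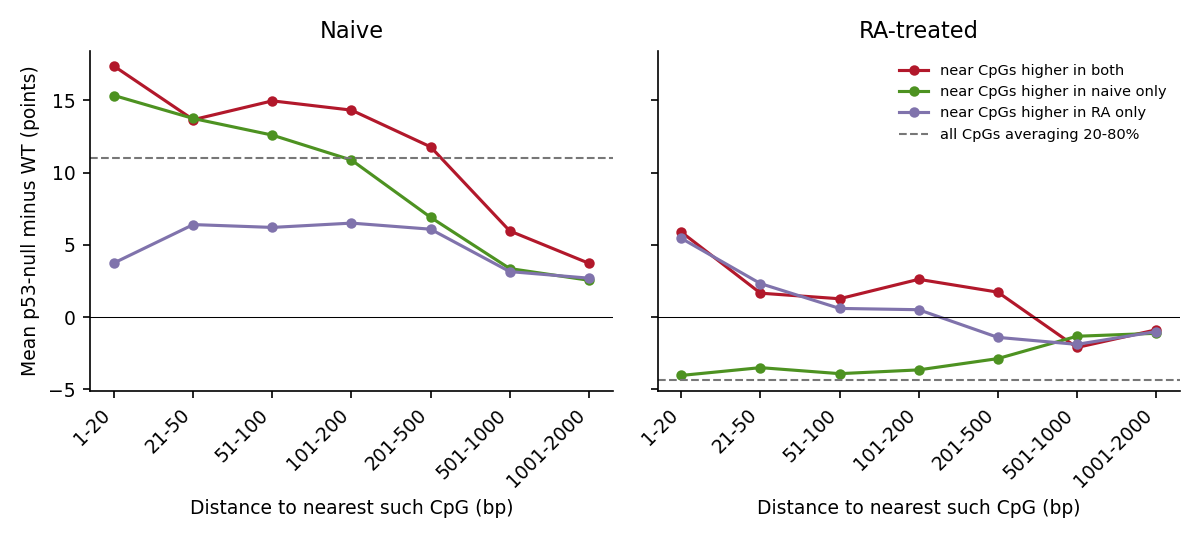
Mean difference in total methylation (p53-null minus WT, percentage points) of neighbouring CpGs by distance in bp to the nearest CpG that was higher in both states, in naive cells only or after RA only. The 587 CpGs themselves are left out as neighbours, and the dashed line is the mean of all CpGs averaging 20% to 80%. In the RA panel the red line starts at 5.88 points and is at -2.10 points beyond 500 bp.

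Seen from single CpGs, 340 of the 587 had at least 1 such neighbour within 1000 bp. The neighbours' mean was higher in p53-null cells at 303 of them in naive cells and at 196 after RA. It passed 20 points at 106 in naive cells and at 16 after RA, and it was at -20 points or less after RA at 12. In the 217 cases with another measured CpG in the same 200 bp tile, the median RA difference was 24 points for the CpG itself and 3 points for the tile mates. The corresponding naive medians were 27 and 14 points. The CpG itself passed the rule and its tile mates did not, so a gap between them is set by the selection. Tile mates were lower in RA-treated p53-null cells by at least 10 points in 27 of the 217 cases and higher by as much in 60.

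The CpG table gives a second value per group, headed Hx, which the sources used here do not define. At no CpG was it above the total value of its group. Across tiles with 1 measured CpG it followed the deposited tile 5mC. In WT cells r was 0.851 in the naive columns against the first set of tile columns and 0.903 in the RA columns against the second, over 52919 and 52913 tiles. Against tile 5hmC, the same r values were 0.101 and 0.033. These points share genome and libraries. The Hx value is used below only under that name.

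The Hx value of the 587 CpGs differed in the same direction as the total at most of them, by fewer points. Its medians were 10% in naive WT, 28% in naive p53-null, 31% in WT after RA and 44% in p53-null cells after RA. The median difference was 15 points in naive cells and 12 points after RA. It was higher in p53-null cells at 434 of the 587 in naive cells, where 18.6% of all and 64.7% of intermediate CpGs were, and at 450 after RA, where 16.1% and 39.3% were. Both held for 335 (57.1%), against 7.03% of all CpGs, 25.3% of intermediate CpGs, 32.5% of those higher in naive cells only and 38.4% of those higher after RA only. At 85 CpGs (14.5%) it was higher by 20 points or more in both states, against 0.38% of all and 1.53% of intermediate CpGs. The share was 2.89% of CpGs higher in naive cells only and 5.12% of those higher after RA only. At 38 CpGs (6.47%) it was higher in neither state, against 72.4% of all and 21.3% of intermediate CpGs. Since Hx cannot exceed the total, a low WT total also limits WT Hx, so the value is not independent of the rule.

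The 5mC of the surrounding 200 bp tiles comes from the oxidised libraries, which the rule did not use. The tile table has 2 sets of columns that name genotype and modification but no cell state, and they are called the first and second set. The 587 CpGs fell in 574 tiles, of which 428 (74.6%) had values in the first set and 393 (68.5%) in the second. Tiles of intermediate CpGs had values more often, 86.2% and 85.2%. Why a tile lacks a value was not tested.

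In the first set tile 5mC had a median of 16.7% in WT against 32.9% in p53-null cells. The median difference was 13.5 points with quartiles of 2.09 and 25.2. It was above 0 in 339 of 428 tiles, where 60.4% of all tiles and 75.7% of tiles of intermediate CpGs were. A tile was counted as called when the authors' deposited table gave q under 0.05 along with 10 points or more. In the authors' deposited table, 223 of the 428 tiles (52.1%) were called higher in p53-null cells, against 23.7% of all tiles that hold measured CpGs and 43.6% of tiles of intermediate CpGs. Called lower in the authors' deposited table were 22 (5.14%), against 3.19% and 5.59%. The share called higher in the authors' deposited table was 56.3% for tiles of CpGs higher in naive cells only.

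In the second set the 5mC of these tiles went against the general direction. Its median was 40% in WT against 45.2% in p53-null cells. The median difference was 3.66 points, with quartiles of -5.19 and 12.8. Tiles of intermediate CpGs had a median of -4.24 points and tiles of CpGs higher in naive cells only -3.67 points. For tiles of CpGs higher after RA only it was 2.31 points. The difference was above 0 in 243 of 393 tiles (61.8%), where 38.7% of all tiles and 34.5% of those of intermediate CpGs were. In the authors' deposited table, 62 of the 393 (15.8%) were called higher, against 1.98% of all tiles, 3.43% of those of intermediate CpGs and 11.6% of those of CpGs higher after RA only. In the authors' deposited table, 20 (5.09%) were called lower, against 8.54% of all tiles and 15.4% of those of intermediate CpGs. With q under 0.01 and 25 points instead, the authors' deposited table called 13 tiles higher (3.31%) in the second set, against 0.244% of all tiles and 0.465% of those of intermediate CpGs. By the same limits 108 (25.2%) were called higher in first-set values of the authors' deposited table, against 8.2% of all tiles, 15.3% of those of intermediate CpGs and 23.8% of those of CpGs higher in naive cells only.

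**Figure D5:**
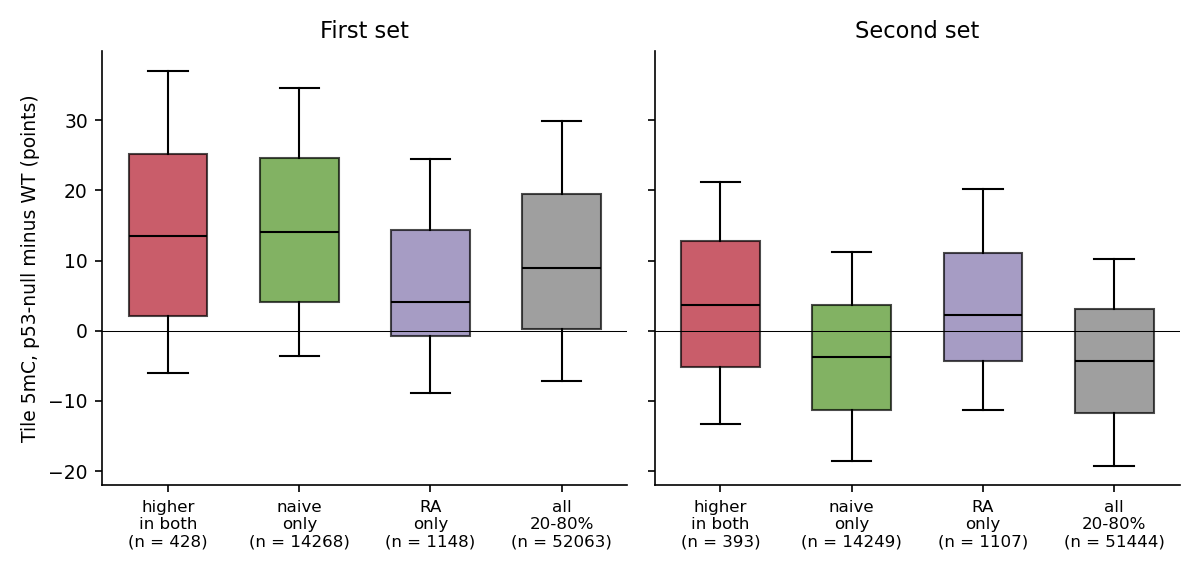
Difference in 5mC (p53-null minus WT, percentage points) of 200 bp tiles in the first and second set of deposited columns, for tiles that hold CpGs higher in both states, in naive cells only or after RA only, and for tiles of all CpGs averaging 20% to 80%. Boxes span the quartiles over tiles and whiskers the 10th to 90th percentile. In the second set the medians are 3.66, -3.67, 2.31 and -4.24 points.

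Both sets had values for 353 of the tiles. In 182 of them (51.6%) 5mC was the higher without p53 in both sets, against 22.9% of all tiles and 26.1% of tiles of intermediate CpGs. It was lower in both in 31 (8.78%), against 14.9% for tiles of intermediate CpGs. In the authors' deposited table, 36 of the 353 (10.2%) were called higher in both, against 0.831% of all tiles, 1.57% of tiles of intermediate CpGs, 2.07% of those of CpGs higher in naive cells only and 3.50% of those of CpGs higher after RA only. In 81 tiles (22.9%) the increase was 10 points or more in both sets, against 2.63% of all tiles and 5.01% of tiles of intermediate CpGs. For tiles of CpGs higher in naive cells only and after RA only it was 7.01% and 9.88%. In 22 tiles (6.23%) the increase was 20 points or more, against 0.372% of all tiles and 0.715% of tiles of intermediate CpGs. For the naive only and RA only lists it was 1.10% and 2.16%. Tiles of the compared lists can hold CpGs of more than 1 list, and tiles are not replicates of a group.

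Tiles named for the largest smaller-of-2 increase in 5mC were higher by 28.1 to 30.4 points in the less changed set. The tile at 44838201 to 44838400 on chromosome 10 had 0% 5mC in WT against 65.5% in p53-null cells in the first set, then 44% against 74.4% in the second, with q of 5.53e-12 and 0.0539 in the authors' deposited table. Its first-set total was 62.5% in WT against 75.3% in p53-null cells, with q of 0.167 in the authors' deposited table. With 5mC at 0%, the deposited first-set 5hmC in WT was 62.5%, against 9.83% in p53-null cells. Its second-set total methylation was the lower without p53, 72.2% against 77.3% in WT, so the total of this tile did not follow its 5mC. On chromosome 4 the tile at 62289601 to 62289800 had 5mC of 34.6% against 63.6% in the first set, then 40% against 73.2% in the second (q of 2.17e-06 and 0.00022 in the authors' deposited table).

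On chromosome 12 the tile at 110779001 to 110779200 was low in WT cells in both sets, at 15.3% and 16.2% 5mC, and at 66.9% and 45.2% in p53-null cells, with both q-values listed as 0 in the authors' deposited table. Its CpG starting at 110779173 was at 19% in naive WT, 68% in naive p53-null, 24% in RA-treated WT and 57% in RA-treated p53-null cells. On chromosome 18 the tile at 53850801 to 53851000, with 3 measured CpGs, had 1.5% against 30.6% 5mC in the first set, then 23.8% against 52.7% in the second. The tile of the chromosome 5 CpG described above (118596601 to 118596800) had 24% and 81.3%, then 40% and 68.1%, with q of 2.09e-07 and 0.144 in the authors' deposited table. Of these 5 tiles, 3 had q under 0.05 in both sets of the authors' deposited table.

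Of the 10 CpGs with the largest smaller difference, 6 had tile values in the first set and 4 in the second. In the authors' deposited table, 3 of the 6 and 0 of the 4 tiles were called higher in 5mC, where 52.1% and 15.8% of the tiles of all 587 were. These numbers are too small to compare. At the chromosome 11 CpG starting at 97870825, tile 5mC was 36.1% in WT against 29.8% in p53-null cells in the first set, then 57.6% against 54.5% in the second. For the chromosome 4 CpG starting at 26934680 it was 46.8% and 24.7%, then 51.9% and 41.4%. In both tiles 5mC was thus the lower in p53-null cells, although total methylation of both CpGs was higher by 38 points or more. The 5mC q-values in the authors' deposited table were 0.161 and 0.59 on chromosome 11, and 2.77e-06 and 0.0677 on chromosome 4. In both tiles first-set WT 5mC was above the WT total, at 36.1% against 23.7% and 46.8% against 32.3%. Hx of the CpGs themselves was higher without p53, by 25 and 34 points (naive, RA) on chromosome 11. On chromosome 4 it was higher by 30 and 2 points. The totals of these tiles were higher in p53-null cells by less than those of the CpGs. On chromosome 11 the tile total differed by 29.3 points in the first set and 15.7 in the second. On chromosome 4 it differed by 26.8 and 0.18 points. The second-set total of the chromosome 4 tile was thus nearly equal in both genotypes, while its only measured CpG differed by 38 points after RA.

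Larger total differences did not come with larger second-set 5mC differences. Counted per CpG, the median second-set 5mC difference was 4.61 points where the smaller total difference was 20 to 24 points, 0.45 points where it was 25 to 29 and 3.01 points where it was 30 or more, over 292, 79 and 32 CpGs with tile values. In the first set the medians were 11.9, 17.2 and 21.9 points. Counted per tile, the median second-set difference was 1.54 points for CpGs past 25 points in both states. The difference between these classes was not tested.

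Sites with several such CpGs had the larger median 5mC difference in the second set, which was not tested. The 20 tiles with second-set values that held CpGs of the 17 multiple sites had a median of 13.6 points, and 18 were above 0. In the authors' deposited table, 11 of the 20 were called higher. Tiles of CpGs that stood alone had a median of 3.33 points, with 225 of 373 above 0, and the authors' deposited table called 51 of them higher. First-set medians were 19.9 points in 19 tiles and 13.5 points in 409. The 55 CpGs under 20% in both WT columns had a second-set median of 10.3 points over 36 with tile values, and 29 of those were above 0. On X the second-set median was 11.3 points over 16 CpGs, and on the autosomes it was 3.95 over 387.

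Tile total methylation, from the same assay as the rule, changed less than the single CpG. Since the CpGs were chosen for differences of at least 20 points, smaller tile differences were favoured by the selection. Among the CpGs that were the only measured one of their tile, the median naive difference was 28 points, and the first-set tile total differed by 23.8 points over 246 of them. The median RA difference was 23 points, and the second-set tile total differed by 11.2 points over 220. The second-set tile total reached 20 points at 52 of the 220. In the authors' deposited table, 311 of 428 first-set tiles (72.7%) were called higher in total, against 21.1% of all tiles and 39.2% of those of intermediate CpGs. Only 43 of 393 second-set tiles (10.9%) were called higher in total there, against 0.348% and 0.593%. With q under 0.01 and 25 points, 7 second-set tiles (1.78%) were called higher in total. The reads and further CpGs that enter a tile value are unknown here. The sets were put beside the naive and RA differences by the correlations given below, as their headings name no state.

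The difference between tile total and tile 5mC, deposited as 5hmC, was larger without p53 in 280 of 428 first-set tiles, where 50.8% of all tiles were, and in 262 of 393 second-set tiles, against 49.7%. Its medians in WT against p53-null cells were 9.94% against 16.8% in the first set, then 6.02% against 11.7% in the second. The median difference was 6.37 and 6.17 points, against 0.48 and 0.24 points in tiles of intermediate CpGs. Because 5hmC is computed from total methylation, the measure that chose these CpGs, these values are not independent of the rule. In tiles of CpGs higher in naive cells only, the median 5hmC difference was 4.25 points in the first set and 0.49 points in the second. For tiles of CpGs higher after RA only it was 0.87 points in the first set and 5.50 points in the second. WT 5hmC was below 0 in 67 of the 428 first-set tiles and 107 of the 393 second-set tiles. For tiles of intermediate CpGs these counts were 5558 of 52063 and 12051 of 51444.

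The liver libraries were not analysed here. The series has 3 WT and 3 p53-null liver RRBS libraries, from males of 16 weeks. A further 4 columns of tile values, headed p53, p53_D, WT and WT_D, give a genotype but neither a tissue nor a sample. Whether any of them holds the liver values could not be told from the headings, and they were not used.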

How the data were processed

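Libraries were RRBS and oxRRBS of MspI-digested DNA, per the labels' protocols. Trim Galore, BSMAP and methylKit with build mm9 are named in the submitters' processing notes. The sources used here do not give their roles, versions, coverage filters or how libraries were pooled. For single CpGs the authors deposited whole percent values, 1 per genotype and state. For 377684 tiles of 200 bp the authors deposited fractions, from 0 to 1, with differences and q-values. Fractions were multiplied to percent and differences turned to p53-null minus WT. A q-value of -1 was taken as missing. A set of 4 further columns was not used.

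CpGs were selected at 20 points in both states, neighbours counted within 1000 bp, and each tile counted once. Neither cell state was given to the 2 sets of tile columns. Across tiles with 1 measured CpG, total methylation of the first set correlated with naive CpG values (r = 0.922 in WT, 0.939 in p53-null) and of the second with RA-treated values (0.928 and 0.934). The crossed pairs gave 0.793, 0.81, 0.792 and 0.821. Points share libraries, so this is a description.

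Planned fits per library were not run, since the tables hold pooled values, and no test was made beyond the authors' q-values. The genotype labels were not checked, as methylation does not show the deleted allele. The members, lists and comparisons were chosen with earlier results of these data known. Named sites were the 10 CpGs of largest smaller difference (1 per 1000 bp), the 5 sites of most CpGs, the 5 tiles of largest smaller 5mC increase, and CpGs at the threshold, with ties broken by chromosome name, then position. The intermediate class was set after seeing the data. Alternatives were other thresholds, distances, chromosomes, tile weights and call rules. Distance and selection code was tested on simulated data. Python 3.11.15, numpy 2.4.6, pandas 2.3.3 and matplotlib 3.10.9 were used.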

Additional observations from a re-analysis of the deposited data

How the results depend on the processing

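The number of CpGs higher in both states depended on the threshold: it was 1840 at 15 points, 187 at 25 and 53 at 30, against 587 at 20. It was 565 on autosomes only, 545 without chromosome 11, 568 with 1 CpG per 1000 bp and 562 without CpGs at 0% or 100%. Each of these settings leaves out few CpGs, so none could move the number far. The mean naive difference of neighbours was 14.2 points within 500 bp, 9.95 within 2000 bp, 11.01 outside the CpG's own tile and 12.6 on autosomes. After RA the same settings gave 2.32, 0.8, 1.10 and 1.44 points. Within 200 bp, 5.79% of the CpGs had another of their kind. The first-set median 5mC difference of tiles was 13.5 points with each CpG counted once, 14.7 in tiles with values in both sets, 11.2 without tiles of a single measured CpG, 13.4 on autosomes, 13.5 without chromosome 11, 17.8 for CpGs of at least 25 points and 13.8 without CpGs at 0% or 100%. The second-set medians under these settings were 3.96, 3.40, 4.42, 3.57, 3.59, 1.54 and 3.64 points, so none of them changed sign. The share of tiles called higher in the authors' deposited table fell to 25.2% and 3.31% at q under 0.01 and 25 points, and was within 1.5 times of the main share otherwise. The stricter call for 5mC, the exclusion of 0% and 100% for tiles and the autosomes for neighbours were chosen after seeing the data. Alternatives for liver and the omission of single replicates were not run. No paired analysis was possible because each group has a single pooled value per CpG or tile. Depth is unknown, which limits every value.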

Other observations

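In windows of 1000000 bp, 469 windows held at least 1 of the 587 CpGs. Of these, 373 held 1, 78 held 2, 14 held 3 and 4 held 4. The windows with 4 were on chromosome 11 (94000001 to 95000000 and 97000001 to 98000000), chromosome 2 (31000001 to 32000000) and chromosome 4 (148000001 to 149000000), with 88, 130, 80 and 135 intermediate CpGs. Whether these windows differ from others was not tested.

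CpGs whose Hx value was higher without p53 in each state numbered 335 of the 587. Counted per CpG, their tiles had median 5mC differences of 18.6 points (first set, 259 CpGs) and 8.39 points (second set, 245 CpGs). For the other 252 the medians were 6.15 and -3.79 points, over 180 and 158. The Hx value follows tile 5mC (r between 0.851 and 0.913 for naive columns with the first set and RA columns with the second), so this split sets the direction and the difference between the classes is no finding. Median total differences of both classes were 28 points in naive cells and 25 and 23 points after RA. A CpG lower in both states lay within 1000 bp of 1 of the 587, and a CpG higher in naive and lower in RA-treated p53-null cells lay as near to 12 of them (2.04%, against 2.52% of intermediate CpGs).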
